A study of Mus musculus with 5 samples.

Results

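The S100 family was followed through whole lenses of 14-day-old (P14) mice in which Yap1 had been conditionally deleted. Yap1 encodes YAP, which the Hippo pathway holds in check and which switches on genes through TEAD factors. The genes described are 8 rows of the deposited table, of 22183 genes in all, whose symbol is S100a1, S100a4, S100a6, S100a10, S100a11, S100a13, S100a16 or S100b. The cKO group had 2 poly(A) RNA libraries and the Ctrl group had 3, and each library was a pool of 4 to 6 lenses. The cKO pools mixed lenses of Yap1 f/f;Cre and Yap1 f/+;Cre mice, were chosen by a severe eye phenotype (small eyes with a closed pupillary membrane), and so were not selected by genotype alone. The Ctrl pools came from littermates with floxed alleles (Yap1 f/f and Yap1 f/+) that looked normal, and the genotype field names them WT. The sources used here do not name what drives Cre, and all groups carry at least 1 floxed allele. In bulk RNA from pooled lenses, a change in the number of cells of a type and a change in RNA per cell cannot be told apart.

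S100 proteins are small calcium sensors with EF-hand motifs that mostly work as dimers inside cells. Calcium binding opens a surface through which they dock onto targets such as annexins, myosin and ubiquitin-ligase adaptors, and some are also released and bind cell-surface receptors such as RAGE. In the lens, where raised calcium is linked to fibre-cell breakdown and cataract, they sit beside calmodulin, calpains and annexins in the calcium-handling machinery. S100a4, also called metastasin or fibroblast-specific protein 1, is widely used as a marker of fibroblasts and of epithelial-to-mesenchymal transition.

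Of the 8 genes, 7 lie on chromosome 3 and S100b lies on chromosome 10. On chromosome 3 the annotation (GENCODE M21, on build GRCm38) places S100a1 and S100a13 head to head on opposite strands, S100a4 and S100a6 in the same direction with S100a5 as the only S100 gene between them, and S100a11 next to S100a10. The stretches before the start sites of the 3 genes that rose are shown because 2 of these genes are near neighbours and the third shares its upstream stretch with another family member. They are from RefSeq on build GRCm38.p6, which is not the build of the counts (GRCm39), and they end before the first annotated exon. Capitals mark a TATA-box match (TATAAA), and the S100a1 stretch lies between the S100a1 and S100a13 start sites. The positions are chr3:90603620-90603769 on the plus strand for S100a4, chr3:90612732-90612881 on the plus strand for S100a6 and chr3:90514393-90514434 on the minus strand for S100a1.
S100a4: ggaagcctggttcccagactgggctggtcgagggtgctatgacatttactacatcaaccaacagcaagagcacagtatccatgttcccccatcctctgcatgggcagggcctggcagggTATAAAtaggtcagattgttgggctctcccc
S100a6: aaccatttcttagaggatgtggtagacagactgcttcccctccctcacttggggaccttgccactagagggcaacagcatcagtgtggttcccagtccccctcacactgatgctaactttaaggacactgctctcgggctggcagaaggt
S100a1: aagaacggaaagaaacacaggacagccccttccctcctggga

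Promoter windows of 300 bases (250 before and 50 after a start site) were at hand for 7 of the 8 genes, S100a10 being the exception. They were searched on both strands for 3 motifs. Matches are counted per gene for the members, which have 8 windows, but per window for all genes, so the 2 shares differ in unit. TATAAA was found in 1 of the 7 genes, S100a4, with its first base at −31 from the start site, and in 13.6% of 32851 windows of all genes. TGANTCA, the AP-1 motif, was found in 2 of the 7 genes, with matches at −136 and −38 in S100a11 and at −192 in 1 of the 2 windows of S100a16, and in 7.81% of all windows. GGAATG, the motif of the TEAD factors that partner YAP, was found in none of the 7 genes and in 14.7% of all windows. No match overlapped another, and a match or its absence describes these letters only.

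Libraries held 22047553 to 25762805 counts, and abundances are given as CPM (counts scaled to library size) after TMM scaling between libraries. In cKO 1 and 2, Yap1 had 3.76 and 2.27 CPM, against 7.19, 6.49 and 5.49 CPM in Ctrl 1, 2 and 3, a log2 fold change of −1.08 that did not pass the threshold (edgeR adjusted p = 0.0759). Crystallins took 69.1 and 66.4% of cKO 1 and 2, below the 73.9, 72.6 and 71.3% of Ctrl 1, 2 and 3. The summed abundance of 15 fibre-cell markers, which include the crystallin genes Crybb1 and Crygs, was 92619 to 114073 CPM in cKO and 96043 to 115881 CPM in Ctrl. Of 11 lens epithelium markers, 4 were called lower (edgeR adjusted p under 0.05) and 7 were not called, with a median log2 fold change of −0.43. The sum of these 11, which include the crystallin gene Cryab, was 30318 and 27248 CPM in cKO 1 and 2 and 21317 to 29217 CPM in Ctrl. Cdh1, which is among the 11, had 1 and 0 counts in cKO 1 and 2. Neither sum is split here into crystallins and other markers. The Y-linked Ddx3y was at 0 in both cKO libraries and at 30.4 to 39.6 CPM in Ctrl, so that sex and genotype cannot be told apart here.

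S100a4, S100a6 and S100a1 were higher in the cKO lenses. Of the 8 genes, 7 passed the low-count filter and were tested (edgeR quasi-likelihood, Benjamini-Hochberg over 11724 genes, threshold 0.05), and all 7 had a positive log2 fold change, with a median of 1.28 against −0.06 for all genes tested. Of the 7, 3 rose, none fell, and 4 did not pass. Over all genes tested, 13.5% were called, 5.76% as higher and 7.73% as lower in cKO (675 and 906 genes). Scaling by total counts alone gave 1234 higher and 717 lower. In 6 of the 7 tested genes every cKO library lay above every Ctrl library, which was the case for 22.8% of all genes tested.

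**Figure D1:**
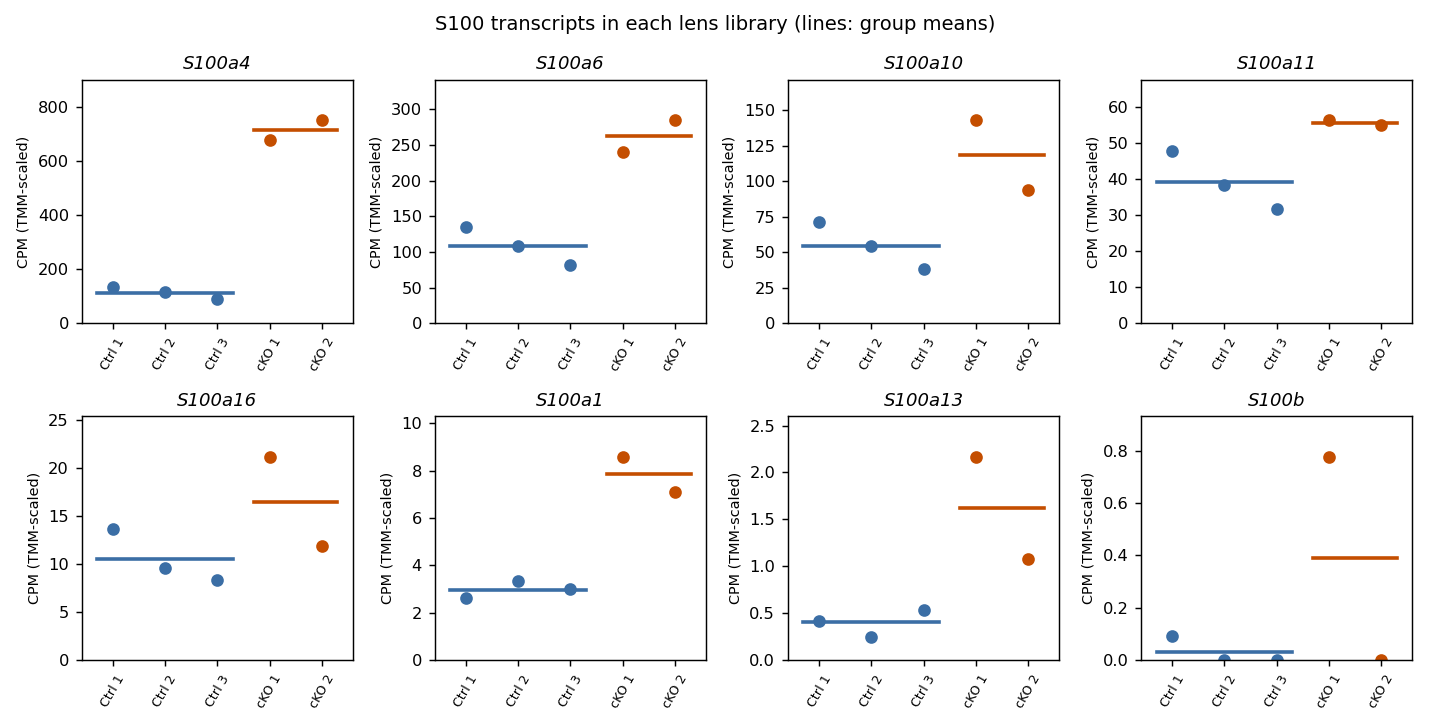
Abundance of the 8 S100 genes in each library, as TMM-scaled CPM on linear axes that start at 0, with Ctrl libraries in blue, cKO libraries in orange and a line at each group mean. S100a4 stands at 89.2 to 135 CPM in Ctrl and at 679 and 751 CPM in cKO, whereas the S100a16 values overlap and S100b is seen mainly in cKO 1.

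S100a4 (ENSMUSG00000001020), which binds non-muscle myosin and is tied to cell motility, was the most abundant member and, of the 7 tested, the one with the largest change. It was measured at 679 and 751 CPM in cKO 1 and 2 against 135, 115 and 89.2 CPM in Ctrl 1, 2 and 3. Both cKO libraries were far above all Ctrl libraries, and the pair of cKO values lay close together. The means were 715 ± 51 CPM (SD, n = 2) in cKO and 113 ± 23 CPM (SD, n = 3) in Ctrl, and S100a4 rose 6.32-fold, a log2 change of 2.66 (SE 0.20, edgeR adjusted p = 0.00373). Ranked by FPKM (fragments scaled to transcript length and library size) among 22183 genes, S100a4 stood at place 29 and 26 in cKO 1 and 2 and at place 89, 99 and 118 in Ctrl 1, 2 and 3. The call was lost without Ctrl 2 (2.67, edgeR adjusted p = 0.0575) and held without each of the other libraries.

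S100a6 (ENSMUSG00000001025), or calcyclin, which binds the ubiquitin-ligase adaptor encoded by Cacybp, followed at a lower level. Its abundance was 240 and 285 CPM in cKO 1 and 2 against 135, 108 and 82.4 CPM in Ctrl 1, 2 and 3. The groups did not overlap, and cKO 2 was the higher of the cKO libraries, as it was for S100a4. S100a6 rose 2.42-fold, from 108 ± 26.2 CPM (SD, n = 3) to 262 ± 31.8 CPM (SD, n = 2), a log2 change of 1.28 (SE 0.23, edgeR adjusted p = 0.0228). This call was lost without Ctrl 1, 2 or 3 (edgeR adjusted p = 0.0641, 0.121 and 0.0848), with log2 changes that stayed above 1.16. Most calls over the whole table were lost in these fits too.

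S100a1 (ENSMUSG00000044080), known chiefly from heart and skeletal muscle as a regulator of calcium cycling, was a scarce transcript in these lenses. It had 8.58 and 7.11 CPM in cKO 1 and 2 against 2.60, 3.32 and 2.99 CPM in Ctrl 1, 2 and 3. The spread within each group was small beside the gap between them. S100a1 rose 2.64-fold, a log2 change of 1.40 (SE 0.26, edgeR adjusted p = 0.0255), from counts of 56 to 78 in Ctrl to 210 and 191 in cKO. It was not called in fits lacking Ctrl 1, 2 or 3 (log2 changes of 1.34, 1.48 and 1.45, edgeR adjusted p = 0.115, 0.121 and 0.105).

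S100a13 (ENSMUSG00000042312) starts on the other side of the upstream stretch of S100a1 and encodes a protein that takes part in the release of FGF1 and IL-1α without a signal peptide. It was near the detection limit, with 53 and 29 counts in cKO 1 and 2 and 9, 5 and 14 counts in Ctrl 1, 2 and 3. In CPM these were 2.17 and 1.08 against 0.418, 0.244 and 0.537. The libraries did not overlap, but the log2 fold change of 2.0 had a wide error (SE 0.67) and was not called (edgeR adjusted p = 0.0969). It was called without cKO 2 (2.40, edgeR adjusted p = 0.0113), a fit that takes the spread of the single remaining cKO library from Ctrl, and by limma on FPKM, and was not without cKO 1 (1.39, edgeR adjusted p = 0.133).

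**Figure D2:**
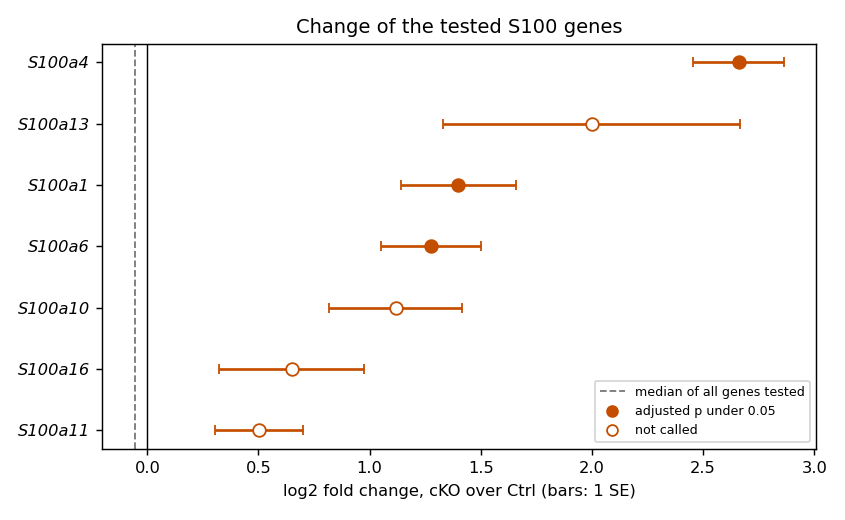
Log2 fold change of cKO over Ctrl for the 7 tested S100 genes, with bars of 1 SE, filled points for genes called at an adjusted p under 0.05 and a dashed line at the median of all genes tested. S100a4 lies at 2.66, and S100a13, at 2.0, has the widest bar and is not called.

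S100a10 (p11) and S100a11 are the annexin-binding members. S100a10 (ENSMUSG00000041959), which forms a complex with annexin A2 at membranes, had 143 and 93.9 CPM in cKO 1 and 2 against 71.1, 54.6 and 38.1 CPM in Ctrl 1, 2 and 3. All cKO values were above all Ctrl values, with cKO 2 nearer to Ctrl than cKO 1. The log2 fold change was 1.12 (SE 0.30) and just missed the threshold (edgeR adjusted p = 0.0571). It was called without cKO 2 (1.39, edgeR adjusted p = 0.00499) and was not without cKO 1 (0.77, edgeR adjusted p = 0.0564). DESeq2 (adjusted p = 0.00285), total-count scaling, the fit with no low-count filter and limma on FPKM also called it.

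S100a11 (ENSMUSG00000027907), a partner of annexin A1, had 56.3 and 54.9 CPM in cKO 1 and 2 against 47.9, 38.4 and 31.6 CPM in Ctrl 1, 2 and 3. The groups did not overlap, but Ctrl 1 came close to the cKO values. Its log2 fold change of 0.50 (SE 0.20) was not called (edgeR adjusted p = 0.139), but was called by total-count scaling (edgeR adjusted p = 0.041) and limma on FPKM. It has an annotated pseudogene, S100a11-ps, which was not analysed here, so its counts are uncertain to that extent.

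S100a16 (ENSMUSG00000074457), a widely expressed member whose targets are less well known, had 21.1 and 11.8 CPM in cKO 1 and 2 against 13.6, 9.57 and 8.33 CPM in Ctrl 1, 2 and 3. It was the only tested member in which the groups overlapped, cKO 2 lying below Ctrl 1. The log2 fold change of 0.65 (SE 0.33) was not called (edgeR adjusted p = 0.226), and moved from 0.16 without cKO 1 to 1.01 without cKO 2, where it was called (edgeR adjusted p = 0.0153).

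S100b (ENSMUSG00000033208), the classical marker of astrocytes and Schwann cells, did not pass the filter. It had 19 and 0 counts in cKO 1 and 2 and 2, 0 and 0 counts in Ctrl 1, 2 and 3. Nearly all of its reads thus came from cKO 1, at 0.776 CPM. A count of 0 in cKO 2 allows up to 3 counts, or 0.112 CPM. Without cKO 2 it passed the filter and was called higher (4.48, edgeR adjusted p = 0.0247), on the 19 counts of cKO 1. S100b lies across from Dip2a, on the opposite strand and outside its exons, and the sources used here do not say whether counting used strand. Of 11 retinal and glial markers, 9 were tested, with a median log2 fold change of −1.41. Of these 9, 1 was called, against 13.5% of all genes tested. This was Aqp4, which was lower in cKO (0.531 and 0 CPM against 5.27 to 8.87 CPM, edgeR adjusted p = 0.0368). Rlbp1 (log2 change 1.42) and Glul (0.52) had higher means in cKO and were not called. Slc1a3, which was not tested, had 0.735 and 0 CPM in cKO 1 and 2 and 0.115 to 0.244 CPM in Ctrl, and Gfap had 7.68 and 0.968 CPM against 21.5 to 34.6 CPM. Of 12 Schwann cell and melanocyte markers, 5 were tested and none was called, with a median log2 fold change of −1.09. Their sum was 200 and 230 CPM in cKO 1 and 2 against 177, 182 and 206 CPM in Ctrl 1, 2 and 3. Among them, Sox10 of Schwann cells had 0.0408 and 0 CPM in cKO 1 and 2 against 0 in Ctrl.

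Fractional expected counts arise where reads are split between genes. Of the 40 values (8 genes in 5 libraries), 39 were whole, and the exception was S100a4 in cKO 2, at 20175.7 expected counts. Gm42674, a gene model that overlaps exons of S100a4, had 1.3 expected counts in that library and 0 in the others, and the pair summed to 20177. A whole value does not show that no read was shared or dropped.

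The order of levels per transcript length was the same in both groups. In Ctrl, mean FPKM ran from S100a4 (213 ± 30.4, SD, n = 3) and S100a6 (182 ± 36.1) through S100a10 (74.3 ± 18.1), S100a11 (71.9 ± 10.6), S100a16 (9.39 ± 1.79) and S100a1 (4.17 ± 0.638) to S100a13 (0.532 ± 0.222) and S100b (0.0187 ± 0.0323). 2 pairs of neighbours in this order overlapped in Ctrl, namely S100a4 with S100a6 and S100a10 with S100a11. In cKO, S100a16 (12.6 and 19.5 FPKM) and S100a1 (12.8 and 12.4 FPKM) were the neighbours that overlapped. S100a4 and S100a6 no longer overlapped there, at 1580 ± 292 and 532 ± 130 FPKM.

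The family's summed abundance was 1151 and 1205 CPM in cKO 1 and 2 against 406, 329 and 253 CPM in Ctrl 1, 2 and 3. S100a4 made up 63.3 and 65.5% of the summed FPKM in cKO 1 and 2 and 37.0 to 39.3% in Ctrl, and S100a11 made up 5.11 and 4.67% in cKO and 12.6 to 13.6% in Ctrl. The members therefore changed by unequal amounts. This can be read within a library, where scaling between libraries does not enter. The FPKM ratio of S100a4 to S100a6 was 3.12 and 2.86 in cKO 1 and 2 against 1.10, 1.20 and 1.23 in Ctrl 1, 2 and 3. The means were 2.99 ± 0.181 (SD, n = 2) in cKO and 1.17 ± 0.0658 (SD, n = 3) in Ctrl, so the gap was many times the spread, and these ratios were chosen after the values were seen and not tested.

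**Figure D3:**
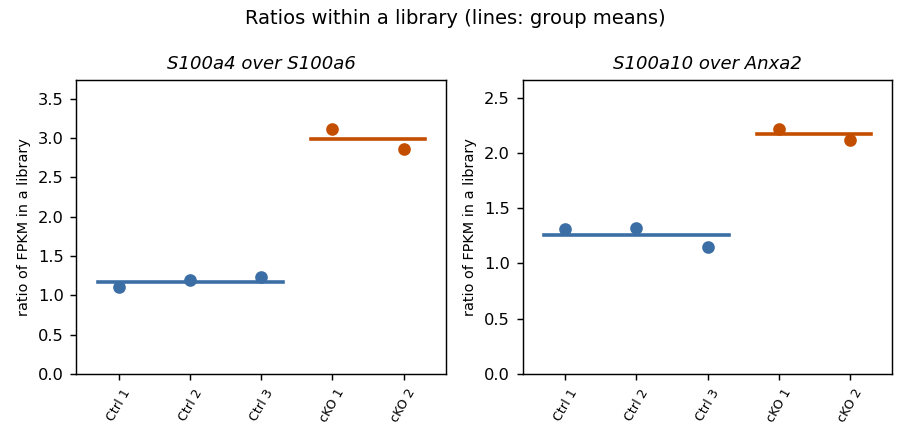
FPKM ratios within each library for S100a4 over S100a6 and for S100a10 over Anxa2, on axes that start at 0, with Ctrl in blue, cKO in orange and a line at each group mean. Both ratios lie higher in both cKO libraries than in any Ctrl library.

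S100 genes between and beside the members were hardly expressed. The table holds 10 other S100 genes, of which 7 (S100a2, S100a5, S100a7l2, S100a9, S100a14, S100g and S100z) were at 0 in all 5 libraries. S100a5, which lies between S100a4 and S100a6, is one of these. S100a3 had 14, 10 and 0 counts in Ctrl 1, 2 and 3 and 0 in both cKO libraries, and was not called (edgeR adjusted p = 0.172). S100a7a had 2, 9 and 5 counts in Ctrl and 0 in cKO, and S100a8, which with S100a9 forms the neutrophil protein calprotectin, had 6 counts in cKO 1 and 0 elsewhere. S100a7a and S100a8 were too low to be tested.

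Among genes for receptors reported to bind released S100 proteins, Ager and Sdc4 were lower in cKO. Of 6 receptor genes, 5 were tested, 2 fell (7.73% of all genes tested were called lower) and none was called higher. Only Sdc1 was higher at an unadjusted p under 0.05. The median log2 fold change was −1.94 against −0.06 for all genes tested. Ager, which encodes RAGE, had 19, 12 and 29 counts in Ctrl 1, 2 and 3 and 0 in both cKO libraries, and was at least 7.34-fold lower against a floor of 3 counts in each cKO library (edgeR adjusted p = 0.0291). Sdc4, which encodes syndecan-4, fell by 1.94 (SE 0.44, edgeR adjusted p = 0.0391), with 9.60 and 4.51 CPM in cKO 1 and 2 against 34.5, 29.8 and 16.9 CPM in Ctrl. Sdc1, encoding syndecan-1, had 46.2 and 139 CPM in cKO and 36.9 to 45.7 CPM in Ctrl and was not called (1.18, edgeR adjusted p = 0.112). It was called with DESeq2 (adjusted p = 0.0217) and without cKO 1 (1.76, edgeR adjusted p = 0.00014), but without cKO 2 the change was 0.18 (edgeR adjusted p = 0.392). Cd36 and Alcam were under 1.2 CPM in every library and were not called, with Alcam called lower without cKO 1 (edgeR adjusted p = 0.0113). Tlr4 was not tested.

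Of 20 intracellular partners, 18 were tested, 1 was higher and 1 lower, and the median was 0.17. Of all genes tested, 13.5% were called in either direction. Cacybp, the S100a6-binding adaptor, rose by 0.66 (SE 0.13, edgeR adjusted p = 0.0296), with 156 and 134 CPM in cKO and 91.0 to 92.9 CPM in Ctrl. Anxa1, the annexin partner of S100a11, fell by 3.13 (SE 0.62, edgeR adjusted p = 0.0289), from 500, 353 and 568 CPM in Ctrl 1, 2 and 3 to 86.9 and 21.7 CPM in cKO 1 and 2. Both cKO libraries were far below Ctrl, with a wide gap between them. Anxa2, the partner of S100a10, was at 114, 87.0 and 69.8 CPM in Ctrl and at 136 and 93.2 CPM in cKO, and was not called (0.34, SE 0.26, edgeR adjusted p = 0.416). The FPKM ratio of S100a10 to Anxa2 within a library was 1.31, 1.32 and 1.15 in Ctrl, and 2.22 and 2.12 in cKO 1 and 2, a description chosen after the values were seen. Of the other abundant partners, Ndrg1 (−0.68) and Stub1 (0.13) were not called (edgeR adjusted p = 0.1 and 0.526). Ndrg1 was called lower without cKO 1 (−1.08, edgeR adjusted p = 0.0025) and not without cKO 2 (−0.38, edgeR adjusted p = 0.0853). Fgf1, the cargo of S100a13, had 0 and 3.46 CPM in cKO and 4.73 to 5.52 CPM in Ctrl and was not called (edgeR adjusted p = 0.435).

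In other calcium-binding families, 2 of 8 annexins, 3 of 17 EF-hand sensors and 2 of 9 secretory EF-hand proteins tested were called, against 13.5% of all genes tested. Of 12 annexins, 8 were tested, 1 was higher and 1 lower, with a median of 0.32. The higher one, Anxa3, rose by 1.67 (SE 0.24, edgeR adjusted p = 0.0143), with 150 and 216 CPM in cKO and 45.3 to 68.8 CPM in Ctrl. Anxa5 (0.50) was not called (edgeR adjusted p = 0.169). Of 26 calmodulins, calpains and other EF-hand sensors, 17 were tested, 2 were higher and 1 lower, with a median of 0.11. Among them Cabp5, a calcium sensor of retinal bipolar cells, rose by 3.36 (SE 0.14, edgeR adjusted p = 0.00206), and Capns1, the small calpain subunit with a penta-EF-hand domain, rose by 1.02 (SE 0.15, edgeR adjusted p = 0.0148). Vsnl1, a neuronal calcium sensor gene, fell by 2.59 (SE 0.62, edgeR adjusted p = 0.0445), from 2.03 ± 0.717 CPM (SD, n = 3) to 0.335 ± 0.104 CPM (SD, n = 2). The abundant Sri (0.48), Calm2 (0.21) and Capn3 (−0.42) were not called (edgeR adjusted p = 0.0867 to 0.469). Calm2 was called higher without cKO 2 (edgeR adjusted p = 0.0321), and Sri without cKO 1 (edgeR adjusted p = 0.00882). Their changes were −0.077 for Calm2 without cKO 1 and 0.30 for Sri without cKO 2, neither called (edgeR adjusted p = 0.682 and 0.114).

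Of 11 EF-hand proteins of the secretory pathway and matrix, 9 were tested, 1 was higher and 1 lower, with a median of −0.31. Rcn2 rose by 0.67 (SE 0.14, edgeR adjusted p = 0.0337) and Calu, encoding calumenin, fell by 0.93 (SE 0.14, edgeR adjusted p = 0.0148). Sparc (−0.31) and Rcn1 (−0.36) were not called (edgeR adjusted p = 0.415 and 0.212), but were called lower without cKO 2 (edgeR adjusted p = 0.0102 and 0.0275). Without cKO 1 their changes were −0.0081 and −0.20 (edgeR adjusted p = 0.973 and 0.357). Of the 10 called genes in these 5 lists, 9 were no longer called without any 1 of the Ctrl libraries (edgeR adjusted p = 0.0793 to 0.177), the exception being Cabp5. Most calls over the whole table were lost in the same way. With all libraries, 675 genes were called higher and 906 lower. These numbers were 26 and 39 without Ctrl 1, 6 and 15 without Ctrl 2, and 30 and 52 without Ctrl 3.

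**Figure D4:**
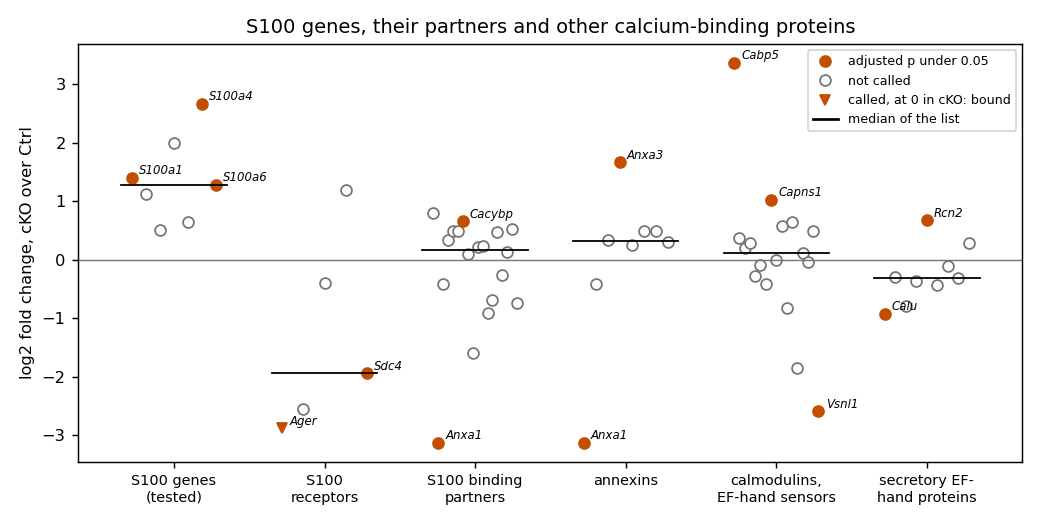
Log2 fold change of cKO over Ctrl for tested genes of 6 lists, with called genes filled and named, a line at each list's median and Ager, at 0 counts in cKO, drawn as a triangle at its bound. The 7 tested members all lie above 0 (S100a3, also tested and at 0 in cKO, is not drawn), while each of the other 5 lists has genes on both sides of 0.

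Cell types other than lens cells could also carry S100 transcripts, and their markers were read in the same libraries. Macrophage markers were higher in cKO. Of 15 listed, 10 were tested and 9 rose, against 5.76% called higher over all genes tested. The summed abundance of the 15 was 149 and 40.0 CPM in cKO 1 and 2 against 1.81, 2.76 and 3.80 CPM in Ctrl 2, 3 and 1. C1qc, with the highest mean CPM over all libraries, had 27.5 and 5.25 CPM in cKO 1 and 2 and 0.0488 to 0.230 CPM in Ctrl. The library with more macrophage transcripts, cKO 1, had less S100a4 and S100a6 than cKO 2. Without cKO 1 the change of S100a4 was 2.72 and that of S100a6 1.38. That fit rests on cKO 2 alone, whose macrophage sum was also above every Ctrl library. The C1q genes were not called without any 1 of the Ctrl libraries (edgeR adjusted p = 0.0595 to 0.103), as was the case for most genes called over the whole table. In CPM, the other 6 members (S100a1, S100a10, S100a11, S100a13, S100a16 and S100b) were higher in cKO 1 than in cKO 2, as the macrophage sum was. For S100a11 the gap was small (56.3 against 54.9 CPM), and its FPKM ran the other way (111 against 127). The part of macrophages in these results was not tested.

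Fibroblast markers moved in both directions. Of 9 listed, 5 were tested, 2 rose (Col1a1 and Postn) and 1 fell (Pdgfra), against 13.5% of all genes tested called in either direction. The sum of the 9 was 35.9 and 10.1 CPM in cKO 1 and 2 and 22.5 to 25.9 CPM in Ctrl. Pdgfra made up most of the sum in Ctrl, with 19.7 to 20.5 CPM there against 1.96 and 0 CPM in cKO 1 and 2. The other 8 markers, summed after the values were seen, came to 34.0 and 10.1 CPM in cKO 1 and 2, above the 5.38, 2.20 and 2.88 CPM of Ctrl 1, 2 and 3. In cKO 2, the library with the most S100a4, Col1a1 (4.73 against 2.70 CPM in cKO 1) was higher, Postn (2.38 against 5.02 CPM) was lower, and Pdgfra, Dcn, Lum and Col3a1 were at 0. The part of fibroblasts in the S100 results was not tested. Of 10 endothelial and mural markers, 9 were tested and none was called, with a median log2 fold change of 0.61. Their sum was 287 and 305 CPM in cKO 1 and 2 against 235, 230 and 176 CPM in Ctrl 1, 2 and 3. Like S100a4 and S100a6, this sum was highest in cKO 2, and the part of these cells was not tested either. The sum is not split by gene here, so a single gene could make up much of it. Of 10 neutrophil markers, 7 were at 0 in all libraries, Ly6g, Elane and Mpo among them. The tested neutrophil marker, Ltf, had 8.50 and 4.28 CPM in cKO 1 and 2 against 2.27, 2.64 and 2.46 CPM in Ctrl 1, 2 and 3. Its log2 fold change of 1.38 was not called (edgeR adjusted p = 0.0555). Of 9 corneal and ciliary markers, Krt5, Krt12 and Krt14 were at 0 throughout. The tested corneal marker, Aldh3a1, had 8.81, 5.66 and 2.69 CPM in Ctrl 1, 2 and 3 and 0 in cKO, at least 48.8-fold lower (edgeR adjusted p = 0.0141), and Krt15 and Opn1sw were seen only in Ctrl, at up to 1.07 CPM. Lens epithelium markers were lower in part, with 4 of 11 called lower, against 7.73% of all genes tested.

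**Figure D5:**
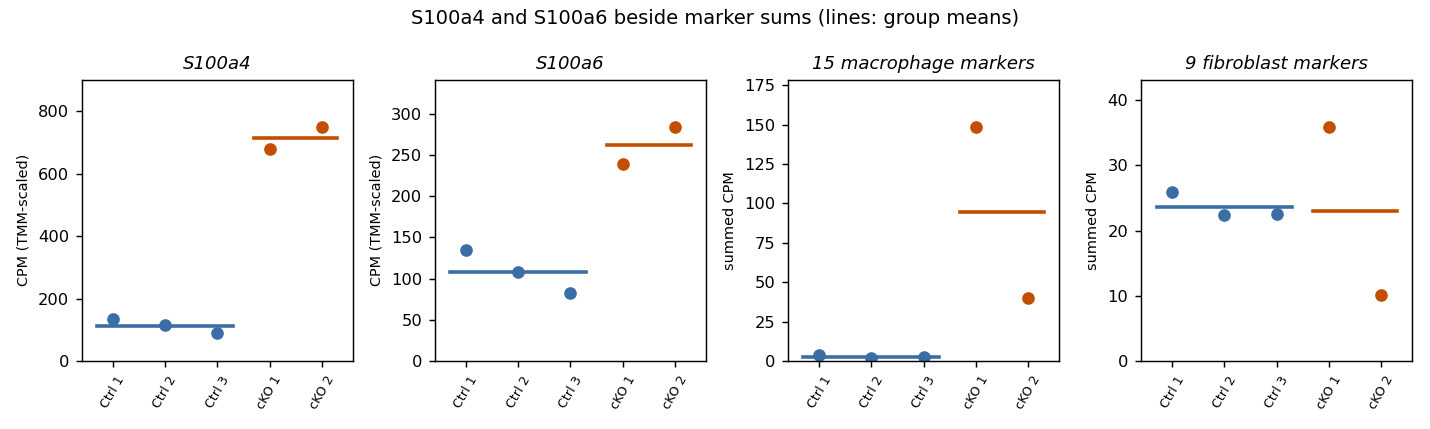
S100a4 and S100a6 (TMM-scaled CPM) beside the summed CPM of 15 macrophage and 9 fibroblast markers in each library, on axes that start at 0, with Ctrl in blue, cKO in orange and a line at each group mean. The macrophage sum is 149 CPM in cKO 1 and 40.0 CPM in cKO 2, whereas S100a4 is higher in cKO 2.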

How the data were processed

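Poly(A) RNA of P14 lens pools was sequenced (2 cKO and 3 Ctrl libraries). The authors deposited 1 table with expected counts, not scaled between libraries per the values, and FPKM values, scaled to length and library size per the file headers. RSEM, Trimmomatic 0.18.0 and build GRCm39 are listed, without roles, in the submitters' processing notes. For the aligner and strand the sources used here give nothing. Genes were matched by the file's symbols.

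Expected counts were rounded, passed through filterByExpr (at least 10 counts, and 15 in total), scaled by TMM and tested by edgeR's quasi-likelihood test (edgeR 4.0.16, R 4.3.3), with Benjamini-Hochberg adjustment over 11724 genes. The script was tested on simulated data. Pools are the replicates. The p-values set the difference between groups against the spread between pools, which is estimated with information shared across genes. A count of 0 allows 3 counts, 0.112 to 0.146 CPM in these libraries, for counting error only.

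Members and gene lists were chosen with earlier results of these data known. Named genes are the 8 members, the other S100 genes, and of 5 partner and calcium-binding lists every called gene and the 4 most abundant, and abundant or absent markers; Anxa2, Fgf1 and the glial, fibroblast and epithelial markers given were chosen after their values were seen. 1 gene that this rule names is not reported here. Alternatives were other scalings (DESeq2 1.42.0 included), no filter, limma (3.58.1) on FPKM, left-out libraries and a replicate block.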

Additional observations from a re-analysis of the deposited data

How the results depend on the processing

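All 7 tested S100 genes kept a positive change under all 13 alternatives. Of 91 such values, 69 stayed on the same side of the threshold, 13 were called only under the alternative and 9 were no longer called. S100 genes called higher numbered 3, against 5 by total counts and 6 by limma with FPKM + 1 or FPKM + 0.1, and 0 to 7 with 1 library left out. Total-count scaling moved the median of all genes by 0.22 on the log2 scale. The family's summed abundance was 3.58 times higher in cKO, 4.20 by total counts and 4.41 by FPKM, and 3.21 to 4.05 with 1 library left out. Genes called higher over the whole table numbered 675, against 1209 by DESeq2, 1234 by total counts, 1380 and 1402 by limma with FPKM + 1 and FPKM + 0.1, and 6 to 2197 with 1 library left out. Genes called lower numbered 906, against 1521 by DESeq2 and 15 to 2964 with 1 library left out. The fits without a cKO library leave 1 cKO library, assumed to vary like Ctrl. Why the counts moved was not tested. Of the other named genes, Calm2 changed direction without cKO 1 (its change ran from −0.077 without cKO 1 to 0.44 without cKO 2). Low depth limits S100a13 (5 to 53 counts a library) and S100b (0 to 19).

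With the replicate block, 68 genes were higher, 107 lower and 1 S100 gene was called, S100a4 (2.52, edgeR adjusted p = 0.022). The numbers come from library names only. Deviations of same-numbered libraries from their group means correlated at 0.112 and −0.0842. With 2 cKO libraries these deviations mirror each other, so this check cannot show whether same-numbered libraries shared anything beyond a number.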

Other observations

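Within the Ctrl group, 5 of the 7 tested S100 genes (S100a4, S100a6, S100a10, S100a11 and S100a16) had their highest value in Ctrl 1 and their lowest in Ctrl 3. Over all genes tested, 18.5% had this order with TMM scaling and 10.4% with total counts, and the same number of S100 genes, 5, had it with total counts. S100a1 and S100a13 did not share it, and their own orders differed. S100a1 was highest in Ctrl 2 (2.60, 3.32 and 2.99 CPM in Ctrl 1, 2 and 3). S100a13 was lowest in Ctrl 2 (0.418, 0.244 and 0.537 CPM), on only 9, 5 and 14 counts.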
